A study of Mus musculus with 1920 samples.

Results

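The p53 targets and cell cycle inhibitors described here are 10 genes, chosen by name, of the 55471 genes listed for single Lgr5-high intestinal stem cells (ISCs). They are Trp53, its negative regulator Mdm2, the p53 target genes Cdkn1a, Ccng1, Bax, Phlda3 and Sesn2, and the cyclin-dependent kinase (CDK) inhibitors Cdkn1b, Cdkn2a and Cdkn2c. Their reads were followed over all cells with at least 1000 detected genes, which were 1836 of 1920 sorted cells. They had been isolated from small intestinal crypts of 3 young mice (Young_1, Young_2 and Young_3 in the labels, called young mice 1 to 3 here) and 4 aged mice (Old_1, Old_2, Old_3 and Old_4, called aged mice 1 to 4). All 7 mice carried the B6.129P2-Lgr5tm1(cre/ERT2)Cle/J allele, which reports Lgr5 with green fluorescent protein and carries an inducible Cre. The labels of these cells state no age in weeks, no sex and no treatment. Cells were stained with 7-AAD and annexin V, which mark dead and dying cells, before they were sorted for high fluorescence, and whether stained cells were left out is not given in the sources used here. This matters for genes that act in cell death, because a gate on dying cells would also set which cells were measured.

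The protein p53, encoded by Trp53, is a transcription factor that is kept scarce by Mdm2, a ubiquitin ligase that p53 itself induces. DNA damage and other stress release p53 from Mdm2, and p53 then switches on genes that stop the cell cycle (Cdkn1a, which encodes p21), promote mitochondrial cell death (Bax) or restrain growth signaling (Phlda3, Sesn2). The CDK inhibitors act at the same step from different sides, p21 and p27 (Cdkn1b) on complexes of cyclins with CDKs, and p16 (Cdkn2a) and p18 (Cdkn2c) on CDK4 and CDK6 themselves. ISCs at the base of the crypt divide throughout life, and their daughters leave the cell cycle as they differentiate, so these brakes are part of the ordinary biology of the crypt as well as of its response to damage. Because p53 is controlled mainly as a protein, the level of Trp53 mRNA is not a measure of p53 activity, and no protein was measured in these cells.

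The promoters of the p53 target genes are shown first, for those targets in which a p53 motif was found, with the motif in capitals. Sequences are from RefSeq (GRCm38.p6), each 300 bases long and written 5′ to 3′ on the strand of the gene, from 250 bases before to 50 after an annotated start. The 10 members had 13 such promoters, and both strands were searched for the p53 decamer, the 10-base motif that p53 binds in pairs. A match stood in 5 of the 13, in the promoters of Trp53, Mdm2, Ccng1 and Bax and in the upstream promoter of Cdkn1a, against 8.36% of the 32851 promoters of this length in the table. The promoters of the targets Phlda3 and Sesn2 held 0. Cdkn1a (chr17:29090729-29091028, plus strand) held 2 matches, which start 73 and 51 bases before the start site, whereas its downstream promoter (chr17:29093519-29093818) held 0. The other 3 printed here have 1 match each, in Mdm2 (chr10:117710709-117711008, minus strand), Ccng1 (chr11:40755237-40755536, minus strand) and Bax (chr7:45466849-45467148, minus strand). A match describes the letters only, and binding was not measured.
Cdkn1a, upstream promoter: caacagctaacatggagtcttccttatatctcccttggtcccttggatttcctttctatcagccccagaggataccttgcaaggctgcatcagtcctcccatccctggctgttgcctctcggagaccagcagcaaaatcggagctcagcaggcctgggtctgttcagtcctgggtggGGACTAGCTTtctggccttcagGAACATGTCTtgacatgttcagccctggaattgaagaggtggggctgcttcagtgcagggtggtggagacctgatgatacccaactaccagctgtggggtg
Mdm2: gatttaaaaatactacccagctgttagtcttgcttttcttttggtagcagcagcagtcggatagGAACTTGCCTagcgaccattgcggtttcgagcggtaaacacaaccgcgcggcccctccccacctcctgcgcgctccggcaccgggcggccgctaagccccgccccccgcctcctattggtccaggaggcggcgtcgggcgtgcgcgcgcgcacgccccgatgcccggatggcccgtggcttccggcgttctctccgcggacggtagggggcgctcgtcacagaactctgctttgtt
Ccng1: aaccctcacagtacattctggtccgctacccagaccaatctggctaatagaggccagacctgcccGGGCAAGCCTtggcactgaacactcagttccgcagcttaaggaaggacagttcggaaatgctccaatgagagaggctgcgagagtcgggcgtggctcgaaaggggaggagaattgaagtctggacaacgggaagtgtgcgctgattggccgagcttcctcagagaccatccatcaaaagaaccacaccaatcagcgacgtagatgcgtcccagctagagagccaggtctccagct
Bax: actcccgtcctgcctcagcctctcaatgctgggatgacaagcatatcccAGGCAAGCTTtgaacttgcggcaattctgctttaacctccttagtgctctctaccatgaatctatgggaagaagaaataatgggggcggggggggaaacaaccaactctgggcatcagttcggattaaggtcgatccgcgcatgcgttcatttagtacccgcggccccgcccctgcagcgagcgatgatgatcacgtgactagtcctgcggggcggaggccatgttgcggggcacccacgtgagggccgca

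Reads were summed over the cells of each mouse, and levels are given as CPM, reads scaled to the same library total in every mouse (TMM). The 7 mice gave 160 to 376 kept cells and 49447464 to 134408884 reads each, and the median cell of a mouse had 8659 to 9949.5 detected genes. The stem cell label was checked on Lgr5 and Olfm4. Lgr5 had a read in 93.1% to 99.5% of the kept cells of each mouse and Olfm4 in 99.7% to 100%. Lyz1, a gene of Paneth cells, also had a read in 83.0% to 91.9% of the cells. The share of cells with Lyz1 was 84.6% ± 2.61 (SD, n = 3) in young and 89.2% ± 1.87 (SD, n = 4) in aged mice (two-sided exact permutation p = 0.0286, the smallest that 7 mice allow). This share was taken without making reads per cell equal, so differences in reads per cell can enter it. With cells brought to equal reads, 6.68% of all genes seen in at least 1% of cells separated the ages. In the same permutation test p was 0.143 for the share of cells with Lgr5 and 0.457 for that with Mki67, another check gene. The exact permutation p for the CPM of Lyz1 was 0.743. For Olfm4 the mean shares were 100% in young and 99.9% in aged mice. What Lyz1 contributes to the values of the members was not tested. In 1549 cells the ISC markers had the highest mean of 8 marker lists, and the other 287 cells, led by another list, made up 9.50% ± 3.74 (SD, n = 3) of the cells of young and 21.5% ± 7.43 (SD, n = 4) of the cells of aged mice (two-sided exact permutation p = 0.0857). Of 5 sequencing lanes 3 held both ages.

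Per length of transcript, Trp53 was the most abundant member, and Cdkn2a had no read in any cell. Trp53 (chr11:69580359-69591873) reached 54.8 ± 3.32 RPKM (CPM per kilobase of exons; SD, n = 7 mice), followed by Bax (chr7:45461697-45466898) at 23.9 ± 5.08, Ccng1 (chr11:40748552-40755311) at 20.0 ± 4.02, Cdkn1b (chr6:134920401-134925513) at 14.9 ± 2.52 and Cdkn1a (chr17:29090976-29100727) at 10.9 ± 4.91. A lower group was formed by Phlda3 (chr1:135766119-135769136) at 5.02 ± 3.19 RPKM, Mdm2 (chr10:117688875-117710758) at 4.92 ± 0.411, Sesn2 (chr4:132492032-132510501) at 4.59 ± 1.59 and Cdkn2c (chr4:109660876-109667189) at 2.82 ± 1.11. Of neighbors in this order, the ranges over 7 mice were apart only for Trp53 over Bax and for Cdkn2c over Cdkn2a. Ccng1 was above Cdkn1b in 7 of 7 mice although their ranges overlapped, and Phlda3, Mdm2 and Sesn2 could not be ranked, since Phlda3 was above Mdm2 in 3 of 7 mice. Lengths are of all annotated exons together, so a gene with a long, rarely used exon is placed lower by this scale.

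Most cells held reads of Trp53, Cdkn1b, Bax, Ccng1 and Mdm2, and a minority held reads of the others. Trp53 had a read in 97.7% of the 1836 kept cells, Cdkn1b in 93.6%, Bax in 85.7%, Ccng1 in 84.7% and Mdm2 in 75.2%. For Cdkn1a the share was 45.0%, for Sesn2 41.3%, for Cdkn2c 34.3% and for Phlda3 22.6%. Cdkn2a (chr4:89274471-89294653), the locus of p16 and p19ARF that is known as a marker of senescent cells, was found in 0 of 1836 cells, which allows a share of up to 0.163% (3 cells, for counting error only). It had 0 reads in the removed cells too, and since the annotation and strand setting behind the counts are not stated, the limit holds only if reads of this locus were counted at all. The method has no molecular identifiers, so reads are copies of unknown numbers of molecules and such limits cover counting error only.

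The share of a member's reads in its highest cells was also measured. With every cell thinned to 100000 reads (1732 cells, with 104 too shallow), the 10% of cells with most reads held 20.7% ± 1.06 (SD, n = 7 mice) of the Trp53 reads and 29.8% ± 1.64 of the Cdkn1b reads. The corresponding cells held 72.7% ± 9.81 of the reads of Cdkn1a, 68.9% ± 11.2 of those of Cdkn2c, 62.6% ± 6.32 of those of Sesn2 and 85.2% ± 9.57 of those of Phlda3. Among the 644 thinned cells with a Cdkn1a read, the median was 50.0 CPM and the highest cell reached 2260 CPM, whereas the highest of 1690 cells with Trp53 reached 710 CPM. These shares also rise where few cells have a read, as for Phlda3 in young mouse 3, where 9.41% of cells had one and the top 10% held 100% of its reads. Without thinning, a single cell held 54.3% of the Cdkn2c reads of aged mouse 1, 47.0% of the Sesn2 reads of the same mouse and 41.4% of the Sesn2 reads of young mouse 1.

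The main question the groups pose is whether these genes differ between young and aged ISCs. In edgeR's quasi-likelihood test on the sums per mouse, 0 of the 9 members with reads passed a Benjamini-Hochberg adjusted p of 0.05, as did 0 of all 20957 genes tested, so the background of calls was 0%. At an unadjusted p under 0.05 it was again 0 of 9 members, against 5.24% of all genes. DESeq2 called 0 members and 0.579% of all genes, with 1 member, Cdkn2c, at an unadjusted p of 0.0269, and limma voom called 0 members. On simulated counts for this design edgeR recovered 8.50% of genes changed by 1 on the log2 scale and 57.5% of those changed by 2. The changed genes were drawn from all genes tested, so over such genes a change of 1 would usually be missed. The rate for single members was not simulated, and their standard errors ran from 0.14 for Trp53 to 0.50 for Phlda3. The fold changes below are therefore read with their 95% intervals. The members' median log2 fold change (aged over young) was 0.20, with 6 of 9 above 0, beside a median of 0.01 and 51.7% above 0 over all genes tested.

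**Figure D1:**
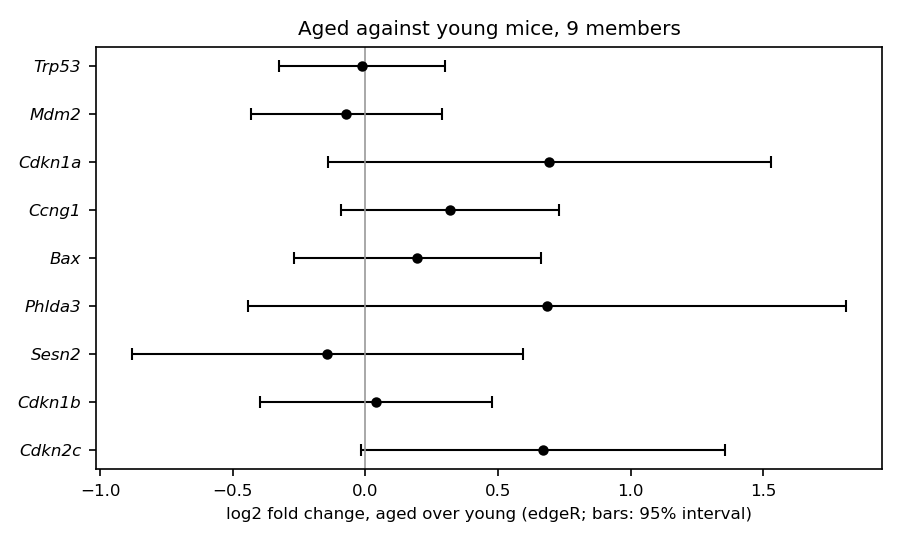
Log2 fold change of 9 members, aged over young mice, from edgeR on the sums per mouse (3 young, 4 aged), with points for the estimate and bars for the 95% interval. All 9 intervals include 0, and the widest is that of Phlda3, from -0.44 to 1.81.

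Trp53 and Mdm2, the core of the feedback loop, lay close together in all mice. Trp53 stood at 228, 232 and 209 CPM in young mice 1 to 3 and at 216, 201, 227 and 239 CPM in aged mice 1 to 4. The 2 ages overlapped fully, and the log2 fold change was -0.01 ± 0.14 (SE; 95% interval -0.33 to 0.30; edgeR adjusted p = 1.00). Mdm2 stood at 22.6, 27.3 and 27.2 CPM in young and at 26.1, 22.8, 25.8 and 23.1 CPM in aged mice, again with full overlap. Its log2 fold change was -0.07 ± 0.16 (SE; 95% interval -0.43 to 0.29; edgeR adjusted p = 1.00). The intervals of these genes were the narrowest among the members.

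Cdkn1a, the p21 gene, had an estimate close to those of Phlda3 and Cdkn2c and a wide spread among aged mice. It was at 34.5, 22.4 and 29.4 CPM in young mice 1 to 3 and at 18.2, 62.9, 46.1 and 58.6 CPM in aged mice 1 to 4. Aged mice 2, 3 and 4 were above every young mouse and aged mouse 1 was below every young mouse. The log2 fold change was 0.69 ± 0.37 (SE; 95% interval -0.14 to 1.53; edgeR adjusted p = 1.00), and without aged mouse 1 it was 0.96 (edgeR unadjusted p = 0.00163, adjusted p = 0.210, the lowest adjusted p of any member under any setting tried). With cells thinned to equal depth the estimate was 0.92 (edgeR unadjusted p = 0.0232) and with cells weighted equally 0.87 (edgeR unadjusted p = 0.0347), neither past the adjusted threshold. Other settings lowered it, to 0.42 with the replicate block, 0.53 with the lane block, 0.51 without aged mouse 2, 0.54 without young mouse 2 and 0.56 without aged mouse 4. Within the 3 lanes that held both ages, the log2 ratio of aged mouse 1 to the cells of young mouse 2 beside it was -0.39, that of aged mouse 3 to young mouse 1 was 0.38, and that of aged mouse 2 to young mouse 2 was 1.39. Cdkn1a overlaps AC167363.2 on the opposite strand, which had 1797 reads over all cells. Reads of the overlap cannot be told apart, since the sources describe no step that keeps the strand and state no strand setting for the counts.

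Ccng1, which encodes cyclin G1, was at 59.0, 63.0 and 62.5 CPM in young mice and at 61.1, 79.2, 67.9 and 98.3 CPM in aged mice 1 to 4. Aged mice 2, 3 and 4 exceeded all young mice, and aged mouse 1 lay within them. The log2 fold change was 0.32 ± 0.18 (SE; 95% interval -0.09 to 0.73; edgeR adjusted p = 1.00), and it was 0.17 without aged mouse 4. Bax, the mitochondrial death effector, was at 36.2, 33.0 and 34.9 CPM in young mice and at 37.4, 31.8, 55.2 and 34.6 CPM in aged mice, with only aged mouse 3 far from the rest. Its log2 fold change was 0.20 ± 0.21 (SE; 95% interval -0.27 to 0.66; edgeR adjusted p = 1.00), and 0.00385 without aged mouse 3.

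Phlda3, a small inhibitor of Akt signaling, was at 8.24, 5.74 and 3.47 CPM in young mice and at 9.31, 4.74, 18.1 and 5.15 CPM in aged mice. The ages overlapped, with aged mouse 3 the highest. The log2 fold change was 0.68 ± 0.50 (SE; 95% interval -0.44 to 1.81; edgeR adjusted p = 1.00), and single mice moved it, to 0.15 without aged mouse 3, 0.42 without young mouse 3 and 1.02 without young mouse 1. One cell of aged mouse 3 held 31.9% of its Phlda3 reads. Sesn2, a stress-induced inhibitor of mTORC1, was at 25.2, 11.3 and 14.2 CPM in young mice and at 22.2, 14.0, 14.2 and 10.7 CPM in aged mice. Young mouse 1 and aged mouse 1 were the high ones, and in each a single cell held over 40% of the reads (41.4% and 47.0%). The log2 fold change of Sesn2 was -0.14 ± 0.33 (SE; 95% interval -0.88 to 0.59; edgeR adjusted p = 1.00), and without young mouse 1 it was 0.26.

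Cdkn1b, the p27 gene, was at 74.0, 67.0 and 59.0 CPM in young mice and at 72.0, 64.0, 86.9 and 51.3 CPM in aged mice. The ages overlapped, with aged mice both the highest and the lowest, and the log2 fold change was 0.04 ± 0.19 (SE; 95% interval -0.40 to 0.48; edgeR adjusted p = 1.00). Cdkn2c, the p18 gene, was at 5.90, 6.12 and 4.95 CPM in young mice and at 7.39, 7.16, 14.0 and 7.42 CPM in aged mice, the only member whose ages did not overlap. That is 1 of 9 members, where 5.62% of all genes tested had no overlap. Its log2 fold change was 0.67 ± 0.31 (SE; 95% interval -0.02 to 1.36; edgeR unadjusted p = 0.0552, adjusted p = 0.964), and the difference in CPM had a two-sided exact permutation p of 0.114. Single cells weigh on it. When the cell with most Cdkn2c reads was left out in each mouse, a step added after the values were seen, young mice ranged from 4.42 to 5.76 CPM and aged mice from 3.38 to 9.47 CPM, so that they overlapped, and the log2 fold change was 0.38 ± 0.35 (SE; edgeR adjusted p = 1.00). Without aged mouse 3 it was likewise 0.38. Over ISC-led cells alone it was 0.84 ± 0.34 (SE; edgeR unadjusted p = 0.0348, adjusted p = 1.00). For Cdkn1a the same step left 0.78 ± 0.36 (SE; edgeR adjusted p = 0.966).

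**Figure D2:**
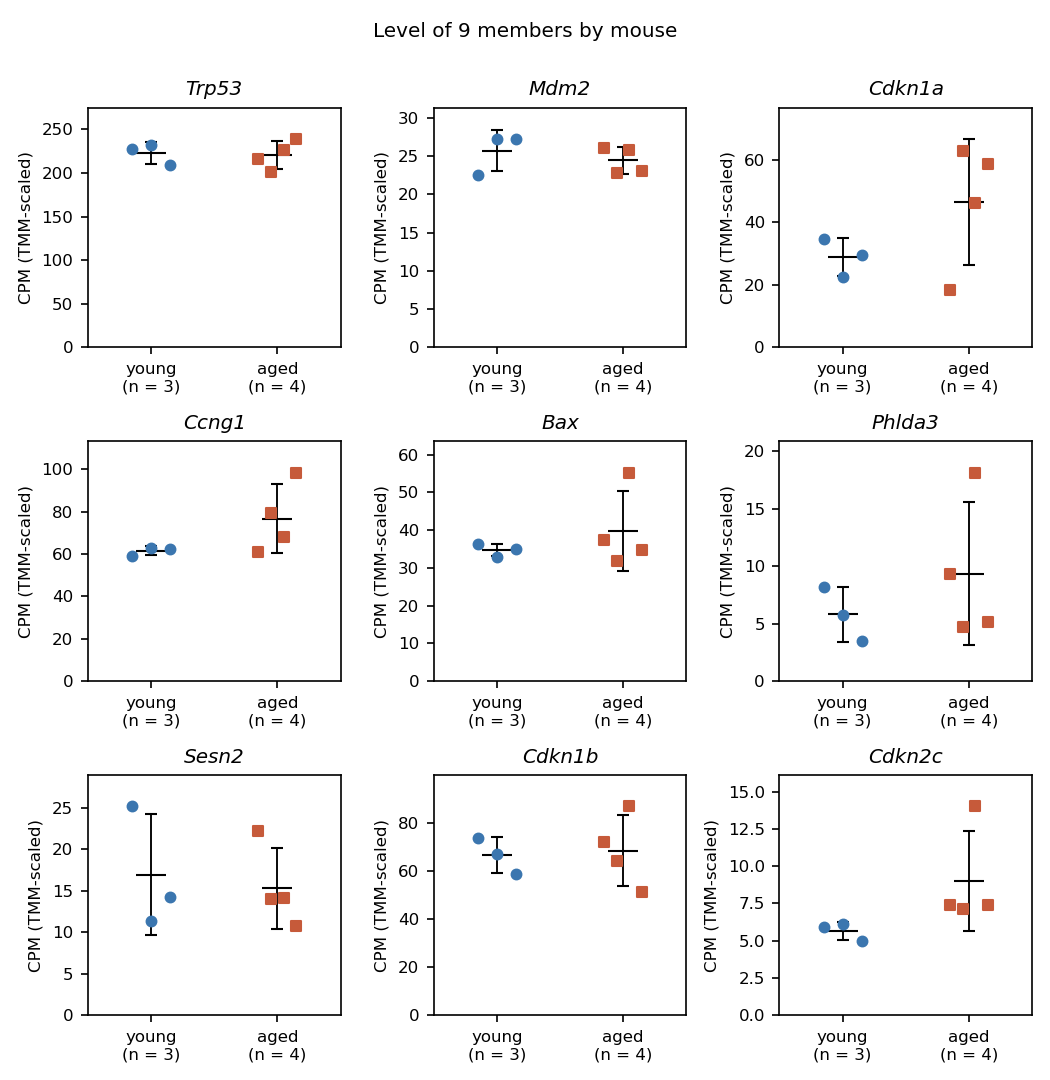
CPM of 9 members in each mouse (blue circles, 3 young mice; red squares, 4 aged mice; bar and whiskers, mean and SD), with a separate scale from 0 in each panel. Trp53 stays between 201 and 239 CPM, Cdkn1a spreads from 18.2 to 62.9 CPM among aged mice, and the highest aged point of Bax, Phlda3, Cdkn1b and Cdkn2c is aged mouse 3.

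Set within lanes, 1 pair of mice each and without a test, Trp53 was lower in the aged mouse in 3 of 3 lanes (log2 ratio -0.29 to -0.04) and Mdm2 in 2 of 3 (-0.41 to 0.16). Cdkn2c ran from -0.06 to 1.09, Phlda3 from -0.21 to 1.02, Bax from -0.09 to 0.56, Ccng1 from -0.10 to 0.21, Cdkn1b from -0.10 to 0.20 and Sesn2 from -0.81 to 0.78. Thus 0 of the members with a higher estimate in aged mice kept that direction in 3 of 3 lanes. Young mouse 2 was the partner of both aged mouse 1 and aged mouse 2, so the pairs are not independent. No share over all genes stands beside these counts of lanes. Young mouse 3 and aged mouse 4 were sequenced without the other age, so lane and mouse cannot be told apart for them.

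The share of cells with a read was compared next, on cells thinned to 100000 reads so that depth was equal. Cdkn1a was detected in 37.7%, 31.5% and 23.9% of the cells of young mice 1 to 3 and in 27.1%, 53.1%, 42.6% and 51.0% of those of aged mice 1 to 4. The means were 31.0% ± 6.89 (SD, n = 3) and 43.5% ± 11.8 (SD, n = 4), and the ages overlapped (two-sided exact permutation p = 0.143). Aged mouse 1 sat among the young mice here, whereas its level was below theirs. Bax was detected in 66.4%, 81.5% and 73.1% of the cells of young mice and in 80.1%, 81.6%, 81.8% and 80.1% of those of aged mice. Here the aged mice were nearly equal (80.9% ± 0.931, SD, n = 4) and the young mice were not (73.7% ± 7.56, SD, n = 3), with p = 0.0857 in the exact permutation test. With cells thinned to 50000 reads the Bax difference was 8.84 percentage points, with p = 0.0286 in the exact permutation test, the smallest possible. With counts as deposited it was 3.26 points (exact permutation p = 0.543), at 3 or more reads 4.59 points (exact permutation p = 0.314) and without young mouse 1, on cells thinned to 100000 reads, 3.56 points.

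Cdkn2c was detected in 24.0% ± 4.95 (SD, n = 3) of the cells of young and 29.7% ± 8.98 (SD, n = 4) of the cells of aged mice (p = 0.314, exact permutation test), Ccng1 in 78.7% ± 2.22 and 84.6% ± 4.49 (p = 0.171, exact permutation test) and Phlda3 in 14.7% ± 4.64 and 20.1% ± 4.37 (p = 0.229, exact permutation test). Trp53, Mdm2, Cdkn1b and Sesn2 differed by 2.57 percentage points or less between the means of the ages. For 0 of the 9 members were the 7 mice separated by age, while 6.68% of all genes seen in at least 1% of cells were. Before thinning, over all 1836 kept cells, the shares were higher, except for Trp53 in aged mice (97.2% before and 97.7% after thinning). For Cdkn1a they were 38.6% ± 6.12 in young and 50.6% ± 15.1 in aged mice, so for this gene the ages stood in the same order.

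**Figure D3:**
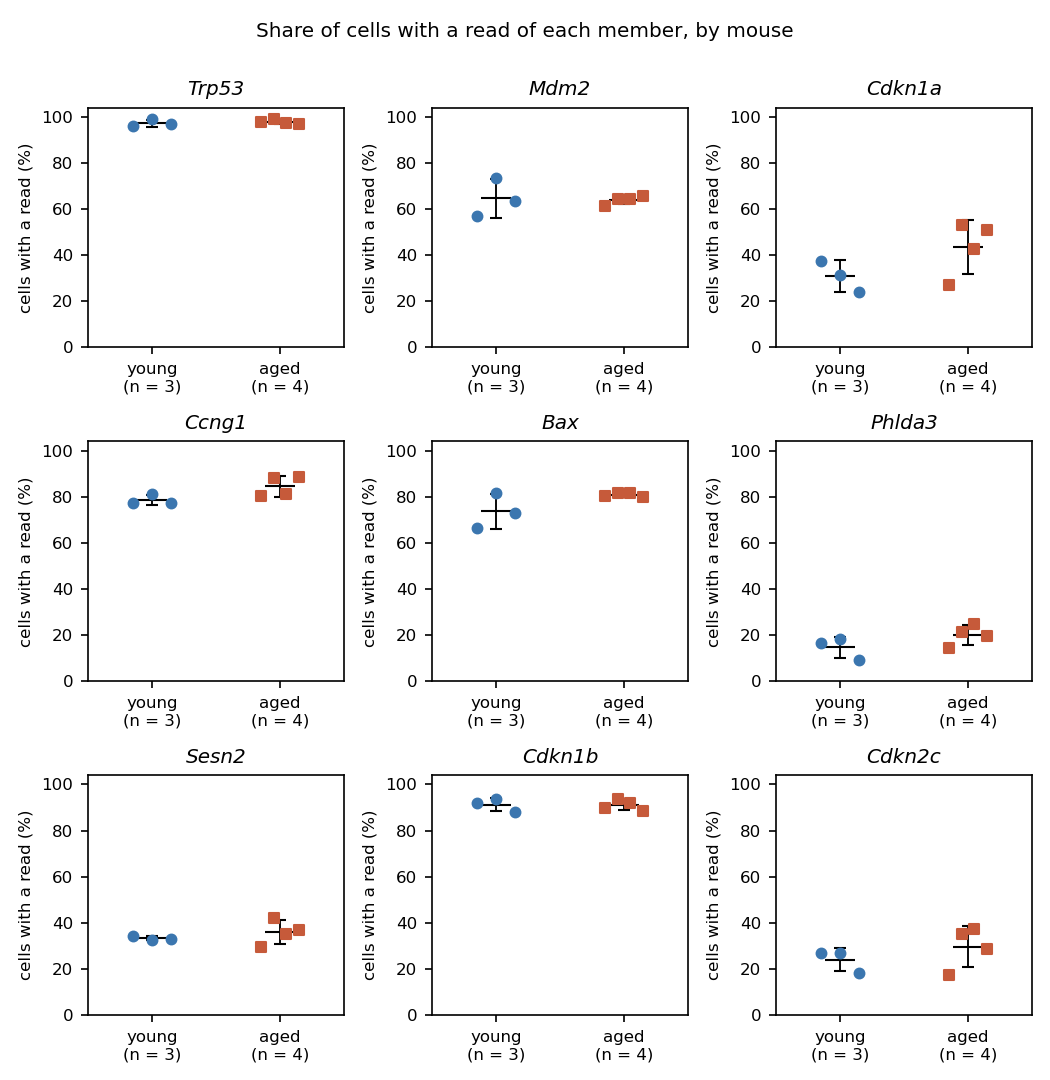
Share of cells with at least 1 read of each member, in percent, after every cell was thinned to 100000 reads (blue circles, 3 young mice; red squares, 4 aged mice; bar and whiskers, mean and SD). Trp53 and Cdkn1b are near the ceiling in all 7 mice, and Cdkn1a has the largest difference between means, 12.4 percentage points, with aged mouse 1 at 27.1%.

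Counted together, the 6 p53 targets (Mdm2, Cdkn1a, Ccng1, Bax, Phlda3 and Sesn2) were rarely all present in a cell. A thinned cell held reads of 2.96 ± 0.201 (SD, n = 3) of them in young and 3.29 ± 0.254 (SD, n = 4) in aged mice. By mouse the mean was 2.89, 3.19 and 2.80 in young mice 1 to 3 and 2.93, 3.50, 3.30 and 3.42 in aged mice 1 to 4, so the ages overlapped. All 6 were found in 1.57% ± 1.24 of the cells of young and 3.63% ± 2.49 of those of aged mice, and 0 of the 6 in 2.44% ± 2.09 and 2.39% ± 0.615. These counts describe the cells and were not tested.

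ISCs cycle, and several members followed the cell cycle. In each mouse the third of thinned cells with the lowest mean of S phase and G2 and mitosis genes was called cycle-low (580 cells), and the rest S-led (611 cells) or G2/M-led (541 cells) by the list that was higher relative to the mouse's own cells. These classes are ranges of a score, not cell types, with 155 cells within 0.25 of the limit, and no member is in either list. As checks, Mki67 went from 73.2 CPM in cycle-low to 2611 CPM in G2/M-led cells, and Mcm5 peaked in S-led cells at 260 CPM, as their place in the lists requires. Values are given as log2 ratios of CPM + 1 within a mouse, without a test.

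Cdkn2c showed the steepest gradient. In cycle-low cells it was at 3.9, 1.5 and 2.3 CPM in young mice 1 to 3 and 1.8, 3.0, 10.5 and 3.4 CPM in aged mice 1 to 4. In G2/M-led cells it was at 9.6, 11.8 and 14.0 CPM in young and 10.0, 10.0, 16.7 and 11.1 CPM in aged mice. All 7 mice were higher in G2/M-led cells, and only aged mouse 3 already had a high value in cycle-low cells. The mean log2 ratio was 1.60 ± 0.62 (SD, n = 7). With counts as deposited, shown because 1 read in a thinned cell is worth 10 CPM, it was 1.78 ± 1.32, a wider spread. In S-led cells the ratio to cycle-low cells was 0.74 ± 0.62, higher in 6 of 7 mice.

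Cdkn1b was higher in G2/M-led cells, with little difference in S-led cells. It was at 59.0, 56.9 and 53.5 CPM in the cycle-low cells of young mice and 55.4, 50.2, 51.4 and 36.9 CPM in those of aged mice. In G2/M-led cells it was at 110.0, 103.1 and 85.5 CPM in young and 90.4, 82.3, 96.7 and 58.9 CPM in aged mice. Every mouse thus had more Cdkn1b in its G2/M-led cells, by a log2 ratio of 0.77 ± 0.11 (SD, n = 7; 0.59 ± 0.15 with counts as deposited), while the ratio of S-led to cycle-low cells was 0.03 ± 0.13. Ccng1 likewise was higher in G2/M-led cells in 7 of 7 mice, by 0.43 ± 0.17, with 0.08 ± 0.25 in S-led cells.

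Trp53 was higher in both cycling classes in 7 of 7 mice, by 0.56 ± 0.18 (SD, n = 7) in S-led and 0.42 ± 0.13 in G2/M-led cells. Its lowest values were thus in the cells with least expression of cell cycle genes, at 176 ± 25.0 CPM against 259 ± 25.2 CPM in S-led cells. Mdm2 was flat, at 25.8 ± 4.62, 26.5 ± 4.04 and 26.4 ± 2.83 CPM in cycle-low, S-led and G2/M-led cells. Cdkn1a was higher in G2/M-led than in cycle-low cells in 6 of 7 mice, but by ratios that ran widely (0.60 ± 0.69). Phlda3 was higher in S-led cells in 7 of 7 mice (0.78 ± 0.43), although with all cells below the median taken as cycle-low the ratio was -0.04 ± 0.73. Bax was higher in G2/M-led cells in 5 of 7 mice (0.24 ± 0.22), and Sesn2 was lower in S-led cells in 6 of 7 mice (-0.41 ± 0.50).

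Members higher in G2/M-led than in cycle-low cells in 7 of 7 mice were Trp53, Cdkn1b, Cdkn2c and Ccng1, 4 of 9, beside 14.6% of the 13205 genes seen in at least 10% of cells, and 0 of 9 were lower in 7 of 7 mice, beside 8.03%. For S-led cells 2 of 9, Trp53 and Phlda3, were higher in 7 of 7 mice, beside 18% of genes, and 0 were lower, beside 4.56%. The S-led count is near its background. Within ISC-marker-led cells alone the G2/M-led ratios were 0.37 for Trp53, 0.78 for Cdkn1b, 1.59 for Cdkn2c and 0.43 for Ccng1. Young and aged mice had close mean ratios for Cdkn1b (0.80 and 0.74), and for Cdkn2c they were 1.89 and 1.38, a difference that was not tested.

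**Figure D4:**
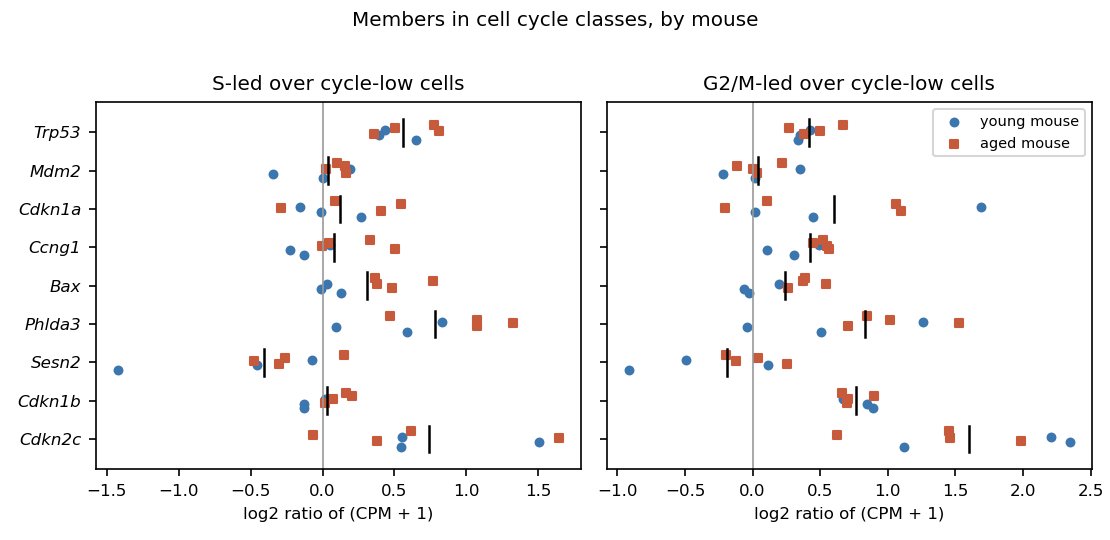
Log2 ratio of CPM + 1 of each member in S-led (left) and G2/M-led cells (right) over cycle-low cells of the same mouse (blue circles, 3 young mice; red squares, 4 aged mice; black line, mean of 7). All 7 points of Trp53, Ccng1, Cdkn1b and Cdkn2c lie above 0 in the right panel, whereas those of Mdm2 lie around 0 in both.

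Cdkn1a stood apart from the other members in where it was expressed. In cells led by markers other than those of ISCs, its level was higher in 7 of 7 mice. ISC-led cells held 30.1, 20.4 and 18.1 CPM in young mice 1 to 3 and 14.4, 48.6, 33.9 and 39.4 CPM in aged mice 1 to 4. The other cells held 66.5, 79.0 and 171 CPM in young and 84.7, 122, 89.7 and 132 CPM in aged mice. These other cells gave 19.3% to 43.6% of the Cdkn1a reads of a mouse but 5.54% to 19.8% of all its reads. By list, Cdkn1a reached 190 ± 55.7 CPM (SD, n = 3 mice with at least 10 such cells, all aged) in enterocyte-led cells, 142 ± 80.9 CPM (n = 2) in goblet-led cells and 72.3 ± 21.3 CPM (n = 6) in Paneth-led cells, against 29.3 ± 12.4 CPM (n = 7) in ISC-led cells. The classes held 83, 51, 131 and 1549 cells, other lists led 0 to 16 cells each, and 29 kept cells lay within 0.25 of a tie between lists. No doublet caller was run, so a cell led by another list can be a pair of cells.

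Most other members were lower in these cells. Against the ISC-led cells of the same mouse, enterocyte-led cells had log2 ratios of -1.13 ± 0.80 for Trp53, -0.89 ± 0.20 for Cdkn1b, -1.01 ± 0.16 for Cdkn2c and -0.75 ± 0.23 for Bax (SD, n = 3), lower in 3 of 3 mice as was Phlda3, while that of Cdkn1a was 2.17 ± 0.28, higher in 3 of 3. In Paneth-led cells Trp53 (-1.59 ± 0.17), Mdm2 (-1.08 ± 0.47), Cdkn1b (-1.11 ± 0.73), Cdkn2c (-1.60 ± 0.75), Bax (-1.32 ± 0.59), Ccng1 (-0.40 ± 0.21) and Sesn2 (-1.29 ± 0.53) were lower in 6 of 6 mice and Cdkn1a (1.24 ± 0.93) was higher in 6 of 6. The exceptions were Mdm2, Ccng1 and Sesn2, each higher in enterocyte-led cells in 1 of 3 mice, Phlda3, higher in Paneth-led cells in 1 of 6, and Mdm2, Cdkn2c and Sesn2, each higher in goblet-led cells in 1 of 2. Classes were set by marker genes of the same cells, and these ratios are a description without a test. No share over all genes stands beside these counts of mice or that of Cdkn1a above. Whether the differences are particular to the members is therefore not shown.

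**Figure D5:**
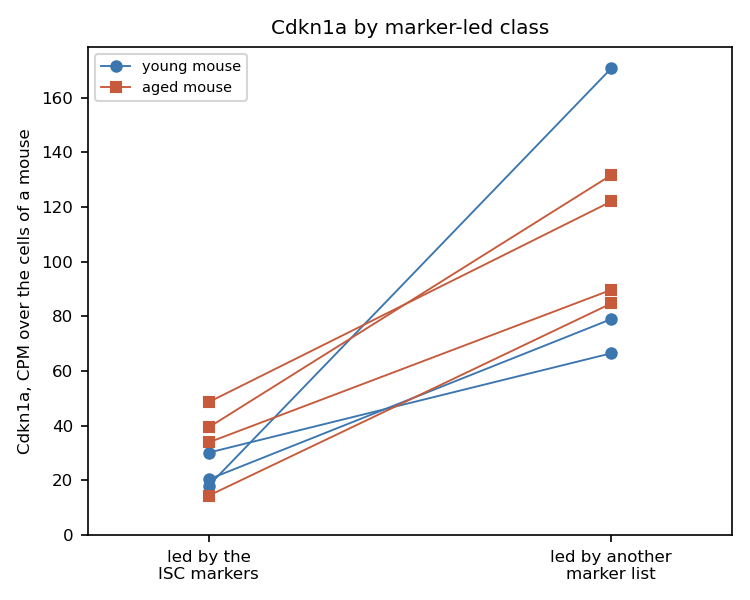
Cdkn1a in CPM over the cells of each mouse led by the ISC markers (left) and over those led by another marker list (right), with a line for each mouse (blue circles, 3 young; red squares, 4 aged). The line of every mouse goes up, from between 14.4 and 48.6 CPM to between 66.5 and 171 CPM.

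Among aged mice, sums of goblet, Paneth, enteroendocrine and enterocyte markers were lowest in the mouse with least Cdkn1a, and enterocyte markers are given first. Of 12 enterocyte markers, 10 had a higher estimate in aged mice, 7 of them at an unadjusted edgeR p under 0.05, with 0 passing the adjusted threshold in edgeR and 2 in DESeq2, and a median log2 fold change of 1.41. Over all genes tested, 51.7% had a higher estimate, 5.24% an unadjusted edgeR p under 0.05, and 0.579% were called by DESeq2. The summed level of the 12 markers ranged from 1437 to 1694 CPM in young and from 1446 to 3181 CPM in aged mice, and 0 of the 12 were at 0 reads. Aged mouse 1, the lowest in Cdkn1a, had 1446 CPM of these markers, and aged mice 2, 3 and 4 had 3064, 2028 and 3181 CPM. Goblet markers summed to 615 CPM in aged mouse 1 and 1037 to 3016 CPM in the other aged mice, Paneth markers to 13730 and 18972 to 30357 CPM, and enteroendocrine markers to 92.0 and 402 to 593 CPM. In young mice these lists ranged from 382 to 1146, 8379 to 28571 and 25.3 to 138 CPM. Tuft cell markers did not follow this order, at 44.4, 38.9, 126 and 154 CPM in aged mice 1 to 4. ISC markers went the other way, at 24632 CPM in aged mouse 1 and 15560 to 19349 CPM in the other aged mice. Immune and stromal markers, at 0.772 and 0.257 CPM in aged mouse 1, were lowest there among aged mice. The sums of S phase genes (2080 CPM) and of G2 and mitosis genes (2805 CPM) were also lowest among aged mice in aged mouse 1. What any of these lists contributes to the Cdkn1a values was not tested. Within ISC-led cells the log2 fold change of Cdkn1a was 0.63 ± 0.38 (SE; edgeR adjusted p = 1.00), close to the 0.69 over all cells, and the ages still overlapped (22.9 ± 6.41 CPM, SD, n = 3, and 34.1 ± 14.5 CPM, SD, n = 4). Dissociation stress genes, whose list includes Dusp1, had a higher estimate in aged mice for 11 of 15, beside 51.7% of all genes tested. Their sums were 1553 to 2949 CPM in young and 2341 to 3216 CPM in aged mice, and their part in the result was not tested.

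Across cells, the 5 genes most like a member mostly differed between members, but Hnrnpa2b1 was among those of Trp53, Cdkn1b and Bax. Likeness was the Pearson correlation of log2(CPM + 1) over thinned cells within a mouse, averaged over 7 mice, and it is a description, since cells of a mouse share plate and preparation. The lists depend on the measure, since with ranks 0 (Trp53) to 3 of the 5 genes of a member remained and with counts as deposited 1 (Trp53 and Cdkn1b) to 4. Cdkn1a was most like AC167363.2 (r = 0.50), the transcript on its opposite strand, then Krt20 (0.33), Alpi (0.32), Rbp2 (0.31) and Dusp1 (0.31), against a median of 0.02 over all genes. Reads where Cdkn1a and AC167363.2 overlap cannot be told apart, and what this contributes to their likeness was not tested. Krt20 is a keratin of differentiated epithelium, Alpi the intestinal alkaline phosphatase and Rbp2 a retinol carrier of enterocytes. Cdkn2c was most like Esco2 (0.38), Anln (0.37), Hist1h2ab (0.37), Gm44484 (0.37) and Hist1h3b (0.37), which include a cohesin acetyltransferase, the cytokinesis protein anillin and 2 histone genes. Cdkn1b was most like Hnrnpa2b1 (0.33), Cdc25c (0.30), Ccnb1 (0.30), Lockd (0.30) and Arl6ip1 (0.29), of which Cdc25c and Ccnb1 drive entry into mitosis.

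Trp53 was most like the abundant genes Rpl4 (0.54), Hnrnpa2b1 (0.53), Rplp0 (0.53) and Atp5a1 (0.52) among others, but 0 of its 5 most similar genes remained when ranks were used. The median over all genes was also highest for Trp53, at 0.13. Mdm2 was most like Gdi2, Cs, Cnih1, Slc25a3 and Hspa8 (0.26 to 0.23), Ccng1 like Cd164, Caprin1, Sec61a1, Gm45912 and Uba1 (0.35 to 0.31), and Bax like Hspd1, Eif5a, Atp5b and Hnrnpa2b1 among others (0.29 to 0.26). Values were weak for Sesn2 (Tmem63b, Exosc4, Oat, Rhpn2 and Atp6ap2, 0.16 to 0.15) and for Phlda3 (Fkbp4, Bax, Ephx1, Ccng1 and Cdc34, 0.14 to 0.13), and in sparse counts such values are no finding. Among the members themselves the correlations ran from -0.05 for Trp53 with Cdkn1a to 0.20 for Trp53 with Ccng1, so a cell with many reads of one member told little about the others.

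The further genes of the pathway were followed in lists written with earlier results of these data known. Of 32 other p53 target genes 32 were tested, 0 were called by edgeR or by DESeq2, 17 had a higher estimate in aged mice, and the median log2 fold change was 0.00519. The largest estimates were those of Eda2r, a death-domain receptor (1.13 ± 0.45, SE, edgeR unadjusted p = 0.0312, adjusted p = 0.891), and Dcxr (0.57 ± 0.29). Eda2r was at 3.97, 2.33 and 3.93 CPM in young mice and at 3.07, 10.6, 5.82 and 10.4 CPM in aged mice, with aged mouse 1 again among the young. At the other end were Dyrk3, a kinase (-0.58 ± 0.23, SE, edgeR unadjusted p = 0.0328, adjusted p = 0.895), and the death receptor gene Fas (-0.38 ± 0.61). Dyrk3 was at 12.5, 9.77 and 10.7 CPM in young and at 6.59, 7.41, 9.14 and 6.31 CPM in aged mice, without overlap, as was Dcxr in the opposite direction. That makes 2 of 32 genes without overlap, near the background given above.

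Of 19 regulators of p53, 17 were tested (Trp63 and Trp73 had too few reads), 0 were called by either tool and 0 had an unadjusted p under 0.05 in edgeR. Their extremes were small, with Trp53bp1 at -0.22 ± 0.18 and Atr at -0.11 ± 0.16 (SE) on one side and Cop1, a ubiquitin ligase of p53, at 0.20 ± 0.21 and the acetyltransferase Kat5 at 0.19 ± 0.25 on the other. Of the 6 other CDK inhibitors and pocket proteins 6 were tested and 0 called by either tool or at an unadjusted p under 0.05. Cdkn2b, the neighbor of Cdkn2a that encodes p15, was detected at 2.46, 2.56 and 1.96 CPM in young and at 1.13, 6.61, 4.90 and 4.59 CPM in aged mice (0.89 ± 0.51, SE, edgeR adjusted p = 1.00). Aged mice 2, 3 and 4 again lay above the young mice and aged mouse 1 below them. Cdkn2d was at 0.37 ± 0.30, Rbl2 at -0.18 ± 0.15 and Cdkn1c at -0.83 ± 0.75 (SE), the last at under 2 CPM in every mouse. Only Rbl2, 1 of the 6, had no overlap between ages, beside 5.62% of all genes. It was at 39.3, 38.9 and 40.2 CPM in young and at 30.4, 32.0, 38.4 and 38.1 CPM in aged mice.

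The list of G1 cyclins, CDKs and E2F genes also holds genes of other kinds, among them Foxo1 and Foxo3. All 17 of its genes were tested, and 0 were called by either tool. An unadjusted edgeR p under 0.05 was reached by 2, Ccne1, the cyclin of the G1/S transition (0.78 ± 0.31, SE, edgeR adjusted p = 0.891), and Foxo1 (0.72 ± 0.30, SE, edgeR adjusted p = 0.920). The same 2 of 17 genes did not overlap between ages, beside 5.24% of all genes for the p and 5.62% for the overlap. Ccne1 was at 6.98, 7.21 and 6.42 CPM in young and at 7.27, 13.9, 16.7 and 9.27 CPM in aged mice, so that the ages did not overlap although aged mouse 1 lay next to the young mice. The lowest estimates were those of Cdk6 (-0.35 ± 0.20) and Foxo3 (-0.29 ± 0.23, SE). The S phase and the G2 and mitosis lists, which set the cycle classes, had 0 of 23 and 0 of 22 genes called, with 16 and 17 genes of higher estimate in aged mice.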

How the data were processed

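Lgr5-high ISCs of 3 young and 4 aged mice were profiled one by one with Smart-seq2, which carries no molecular identifiers. Alignment by the authors used HISAT2 and GRCm38, with Picard for quality, and the submitters' processing notes also name HTSeq. The deposited values are raw read counts per gene and cell, and neither the strand setting nor the annotation is stated in the sources. Gene names and coordinates are from GENCODE M21, which matched 55230 of 55471 identifiers (the others held 0.00278% of reads).

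The 84 cells with fewer than 1000 detected genes were removed, and no doublet caller was run. Counts were summed per mouse, the replicate, and tested with edgeR 4.0.16 in R 4.3.3 (quasi-likelihood test after TMM scaling and filterByExpr, adjusted by Benjamini-Hochberg at 0.05), while DESeq2 1.42.0 and limma 3.58.1 served as alternatives. Shares of cells were compared by two-sided exact permutation of mice among ages (35 arrangements, smallest p = 0.0286). Steps were tested on simulated data (200 changed genes among 20391 and 20458). Reads are PCR copies, so stated limits cover counting error only. Members and gene lists were chosen with earlier results of these data known. Named genes are all members, the called genes and the 2 largest rises and falls of 4 further lists, the 5 genes most like each member seen in at least 10% of thinned cells (1 of the 5 is not reported here for Trp53 and for Bax), and Lgr5, Olfm4, Mki67 and Lyz1 as checks. Mcm5 was added as a check, and genes with an unadjusted p under 0.05 or without overlap were described after their values were seen.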

Additional observations from a re-analysis of the deposited data

Results flagged for a closer look

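Among the 4 aged mice, Cdkn2c in aged mouse 3 (14.0 CPM) lay farther from the others (7.16 to 7.42 CPM) than Dixon's test at the 95% level allows for 4 values. Chance places about 1 in 20 such groups beyond that limit. That rate is for a single group, and each of the 9 members with reads forms such a group in aged mice. A single cell of this mouse held 32.5% of its Cdkn2c reads, and without that cell the mouse stood at 9.47 CPM.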

How the results depend on the processing

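In 19 alternatives to the fit of the members, the count of members past the adjusted threshold was 0 each time. Of the fold changes of single members, 159 kept their direction and 12 changed it. Trp53 was 0.000922 in DESeq2 and 0.054 in ISC-led cells, and from -0.058 to 0.029 with 1 mouse left out. Cdkn1b was -0.10 with cells thinned, -0.28 with cells weighted equally and from -0.086 to 0.16 with 1 mouse left out. Sesn2 was 0.040 with the replicate block, 0.14 with the lane block and from -0.38 to 0.26 with 1 mouse left out. The replicate block changed no call, and the replicate numbers were not taken as pairs, since same-numbered mice deviated together with correlations of -0.02, 0.11 and -0.11. In the lane block young mouse 2 entered in each of its 2 lanes, which overstates replication. The difference in the share of cells (aged minus young, percentage points) turned for Trp53 to -0.662 with counts as deposited, -1.74 at 3 or more reads, -0.824 with cells thinned to 50000 reads and -0.278 to 1.21 with 1 mouse left out. For Mdm2 it turned to 0.759 as deposited, 0.485 at 50000 reads, 0.305 in ISC-led cells and -4.61 to 3.75 with 1 mouse left out, for Cdkn1b to 0.175 at 50000 reads, 0.273 in ISC-led cells and -1.71 to 1.08 with 1 mouse left out, and for Sesn2 to -0.497 at 50000 reads. The cause was not tested. Of 54 cycle ratios under other settings, 48 moved by less than the spread between mice. Over all genes edgeR called 0, without the filter on low counts 22, with thinned cells 15, with cells weighted equally 18, with aged mouse 1 left out 8, and DESeq2 205. Precision is limited by 7 mice, and for Cdkn2c, Phlda3 and Sesn2 by single cells with many reads.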

Other observations

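Bax in S-led cells had a mean log2 ratio to cycle-low cells of 0.05 in young and 0.50 in aged mice. The comparison was picked out after the values were seen, and the difference was not tested.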
